A study of Mus musculus with 88 samples.

Results

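Embryoid bodies, the cell aggregates that mouse embryonic stem cells form when they leave the pluripotent state, were compared between a line labelled Eed null and J1, the wild-type line that the study pairs with it. The 8 samples, 1 of each line at days 0, 2, 4 and 7, were chosen by their labels from the 24 bulk RNA samples of 6 lines, in a series of 88 samples in all. Day 0 was the stem cell culture in serum with LIF, the cytokine that holds stem cells undifferentiated, and the later days followed aggregation and the removal of LIF. The labels give no treatment, and the Eed null line carries no other stated change. The labels put 1 sample at each line and day; the repeat columns at days 2, 4 and 7 were averaged, and p-values measure only how stable the difference between these lines was over the 4 days. The 2 lines were each a single cell line, so the loss of Eed and any other difference between the lines cannot be told apart.

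Eed is a core subunit of Polycomb repressive complex 2 (PRC2), which places methyl groups on lysine 27 of histone H3 and thereby helps to keep developmental genes silent. PRC2 binds at CpG-rich promoters of lineage regulators such as the Hox clusters, and stem cells without it can still self-renew. The related complex PRC1, which reads this mark, carries subunits such as Bmi1 and the Cbx proteins.

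The 14 columns of these samples held 3965840 to 6702637 recovered reads each, and 15948 of 26007 genes passed a minimum of 1 CPM (reads per gene scaled to the same library total) in at least 2 of the 8 samples. Levels are given as CPM on a common scale of these 8 samples. A log2 fold change is the mean over the 4 days of the log2 ratio of the line labelled Eed null to J1, and limma with Benjamini-Hochberg adjustment tested it with the day as a block. With this test 1471 genes differed over the days (9.22% of those tested), 776 of them higher (4.87%) and 695 lower (4.36%) in the libraries labelled Eed null. At this threshold the calls rested on all 4 days: without day 0, 2, 4 or 7 the count was 3, 7, 79 or 56. Of the 88 called genes named here 85, 81, 62 and 65 lost the call, none with a change of direction. Under an unadjusted limma p of 0.05 lay 4589 genes with all days and 3932, 3451, 3795 and 3779 without day 0, 2, 4 or 7. A fit without a day holds fewer samples, so the lost calls do not tell dependence on that day apart from lower power. Trp53, Eda2r and Sfmbt2 were the 3 genes called without day 0, and they passed without each other day as well. Where a gene is given 4 values, they belong to days 0, 2, 4 and 7.

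Eed mRNA itself was not lower in the bulk libraries. Its level was 118, 214, 112 and 61.2 CPM under the Eed null label against 107, 259, 81.4 and 55.7 CPM in J1 (log2 fold change 0.11, SE 0.13, adjusted p = 0.614). The ranges of the lines over the days overlapped, so the transcript level gave no check of the label in bulk. In the single-cell libraries of the series, which count transcript ends, the summed Eed level at day 4 was 1.06 CPM (0.219 to 3.1) against 146 (132 to 160.2) in wild-type cells of the E14 line. Of the 12 PRC2 subunit genes tested, Ezh2, the methyltransferase (log2 fold change 0.64), and Aebp2, an accessory subunit (0.63), passed the test as higher, and Rbbp7, a histone-binding subunit, as lower (-0.40). The count test edgeR did not call Rbbp7 (adjusted p = 0.0569). Of 20 PRC1 subunit genes, 3 passed as higher. Among all genes tested 4.87% passed as higher and 4.36% as lower. The median log2 fold change was 0.04 for the PRC2 genes and 0.29 for the PRC1 genes, beside 0.01 for all genes tested. Bmi1, which supports the ubiquitin ligase of PRC1, stood at 18.3, 36.3, 38.1 and 48.6 CPM in cells labelled Eed null and 4.48, 5.07, 8.47 and 19.6 CPM in J1 (log2 fold change 2.03, SE 0.26, adjusted p = 0.0151), and Rybp had a log2 fold change of 0.62.

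The genes were then sorted by when they differed. A gene was taken to differ at every day when its log2 ratio passed 1 in size, on the same side, at each of the 4 days, and only late when it did so at days 4 and 7 while its ratios at days 0 and 2 stayed within 0.5 of 0. By this rule 251 genes were higher (1.57% of those tested) and 96 lower (0.602%) at every day, and 198 were higher (1.24%) and 61 lower (0.382%) only late. In addition 95 (0.596%) were higher and 48 (0.301%) lower only at days 0 and 2. At single days 0, 2, 4 and 7 the share beyond the limit was 14.4%, 8.47%, 13.3% and 14% of genes on the higher side and 8.52%, 5.15%, 5.92% and 7.04% on the lower side, so most daily differences were not shared by all days. Just inside the limit lay Rab20, with a smallest daily ratio of 1.00, and Mdm2, with -1.01. Abca4, at 0.996, and Ctc1, at -0.999, lay just outside. As the sets were cut from the daily ratios, the 242 of 251 and 91 of 96 that passed the test over the days are not independent of the rule.

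Lower at every day was Trp53, which encodes the tumour suppressor p53, together with genes that p53 is known to induce. Trp53 (chr11:69580359-69591873, plus strand, GRCm38) stood at 15.4, 46.8, 25.5 and 13.1 CPM (labelled Eed null) against 258, 395, 243 and 189.9 CPM (J1) (log2 fold change -3.54, SE 0.18, adjusted p = 0.0033). The highest library labelled Eed null lay far below the lowest J1 library. Ccng1, cyclin G1, was at 43.2, 44, 27 and 59.6 CPM under the Eed null label against 431, 309.7, 512 and 716 CPM in J1 (log2 fold change -3.48, SE 0.22, adjusted p = 0.00571). Eda2r, a receptor for ectodysplasin A2, was at 6.39, 10.7, 3.87 and 6.48 CPM in cells labelled Eed null and 153, 95.4, 52 and 82.7 CPM in J1 (log2 fold change -3.70, SE 0.24, adjusted p = 0.00571). Cdkn1a, the inhibitor of cyclin-dependent kinases known as p21, was at 16.8, 13.6, 11 and 14.6 CPM (labelled Eed null) against 116, 36.9, 72.2 and 149 CPM (J1) (log2 fold change -2.54, SE 0.30, adjusted p = 0.0151). In each of these 4 genes every J1 library lay above every library labelled Eed null. The adjusted p of Trp53 ran from 0.0196 to 0.0359 with each day left out, and Ccng1 lost the call without day 0 (adjusted p = 0.0508).

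A list of 30 known p53 target genes was drawn up after the Trp53 values had been seen, and its counts are a description only. Of the 29 tested, 18 passed the test as lower and 2 as higher, with a median log2 fold change of -0.99 beside 0.01 for all genes tested, and 8 were lower at every day. Among all genes tested 4.36% were called lower, 4.87% were called higher and 0.602% were lower at every day. The 8 were Ccng1, Eda2r, Cdkn1a, Zfp365, Phlda3, Trp53inp1, Bbc3 and Mdm2. Zfp365 stood at 1.54, 3.28, 1.62 and 1.47 CPM under the Eed null label against 22.7, 28.7, 32.4 and 10.6 CPM in J1. Trp53inp1, a stress protein of autophagy and cell death, was at 38.1, 48, 89.4 and 53.9 CPM in cells labelled Eed null and 341, 219, 232 and 209.6 CPM in J1, and Phlda3, an inhibitor of Akt signalling, at 12.8, 4.44, 6.11 and 15.6 CPM (labelled Eed null) against 42.6, 19.2, 48.3 and 48.6 CPM (J1). Bbc3, which encodes the death-promoting protein Puma, had a log2 fold change of -1.66. Mdm2, the ubiquitin ligase that degrades p53, lay between 50.3 and 52.4 CPM under the Eed null label and between 106 and 152 CPM in J1. The called genes on the higher side were Pmaip1 (0.89) and Tigar (0.65), which edgeR did not call (adjusted p = 0.0545 and 0.0523), and Pmaip1 turned to -0.45 when JM8 and Pcl1-3 WT joined J1 as controls. The summed level of the 29 genes was 1017, 1160, 1152 and 1093 CPM under the Eed null label and 2986, 2305, 2670 and 2764 CPM in J1.

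**Figure D1:**
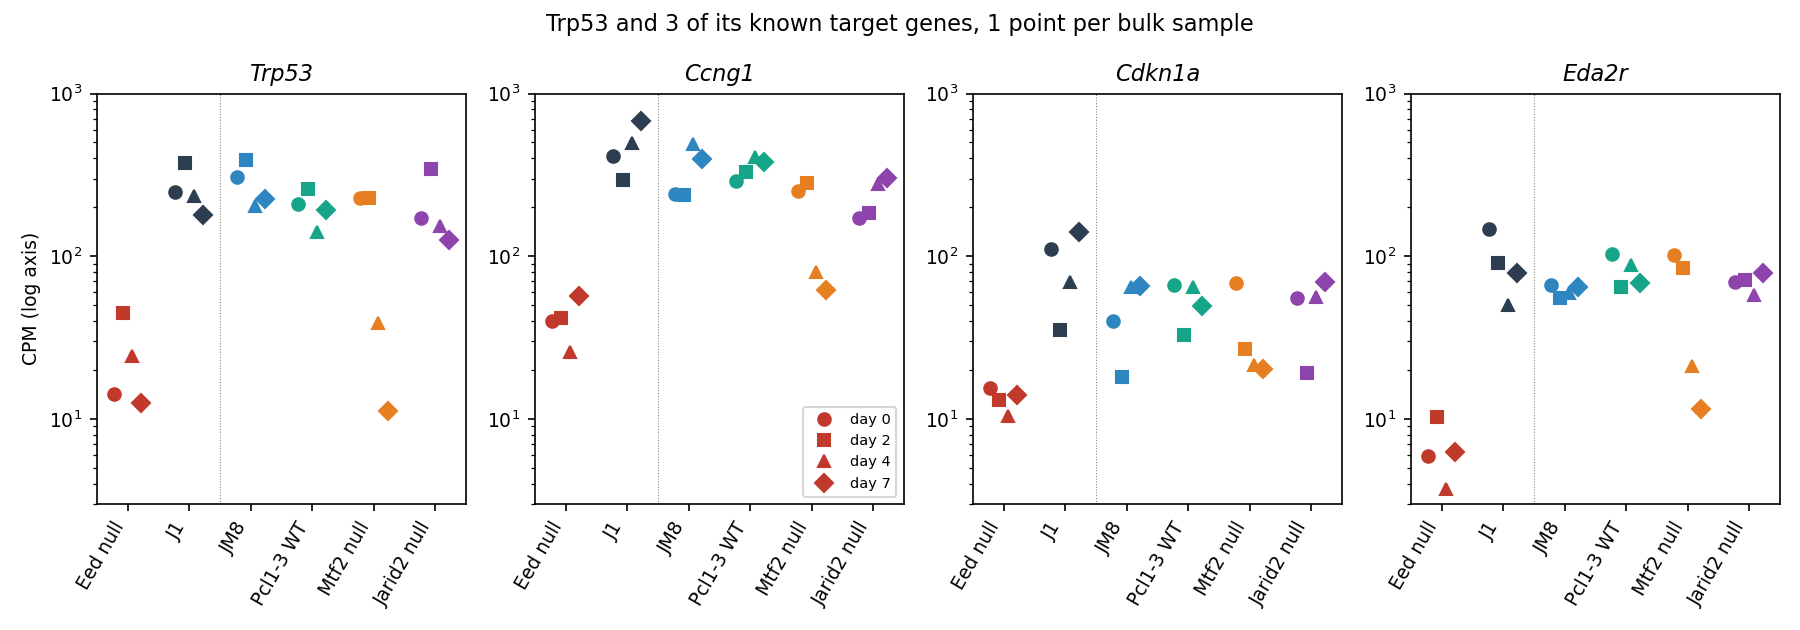
Levels of Trp53, Ccng1, Cdkn1a and Eda2r in CPM on a log axis, with 1 point per bulk sample, the 6 lines along the x axis and the marker shape giving the day; repeat columns are averaged and no error bar is drawn. The 4 samples labelled Eed null lie below all J1, JM8 and Pcl1-3 WT samples in each panel, and the samples labelled Mtf2 null at days 4 and 7 lie low in Trp53.

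The other wild-type lines of the series, JM8 and Pcl1-3 WT, are paired by the study with other mutants and give a second background. On the scale of all 24 bulk samples Trp53 was at 308, 389, 205 and 225 CPM in JM8 and 210.1, 259, 141 and 193 CPM in Pcl1-3 WT at days 0, 2, 4 and 7. Ccng1 was at 241, 237, 488 and 396 CPM in JM8 and 292, 329, 405 and 380.3 CPM in Pcl1-3 WT. For both genes J1 thus resembled the other wild-type lines more than the libraries labelled Eed null did. Of the genes that differed from J1 at every day, 103 of the 251 higher and 14 of the 96 lower ones also passed the limit against both other wild-type lines at each day. Trp53, Ccng1, Eda2r and Ano3, a membrane protein of the anoctamin family, were among the 14.

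The CDK inhibitors differed in both directions. Cdkn2a, which encodes p16 and the p19Arf protein that acts upstream of p53, was at 35.3, 22.1, 31.4 and 59 CPM under the Eed null label against 3.58, 5.15, 1.5 and 4.45 CPM in J1 (log2 fold change 3.22, SE 0.35, adjusted p = 0.0145). Its neighbour Cdkn2b, the inhibitor p15, was at 10.4, 3.52, 5.26 and 25 CPM in cells labelled Eed null and 1.61, 1.09, 1.22 and 2.85 CPM in J1 (log2 fold change 2.15, SE 0.35, adjusted p = 0.0219). Both were higher at every day while Cdkn1a was lower. By limma these 3 were the called genes among the 12 CDK inhibitors and G1 cyclins tested, beside 9.22% of all genes tested called in either direction.

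Of the 10 named genes with the largest smallest daily ratio on the higher side, Tbx15, Hoxd13, Esx1 and Barx1 encode developmental transcription factors. Tbx15, a T-box factor of skeletal development, had the largest smallest daily ratio, at 12.8, 7.69, 13.2 and 31.7 CPM (labelled Eed null) against 0.358, 0.127, 0.593 and 1.38 CPM (J1) (log2 fold change 4.01, SE 0.27, adjusted p = 0.00678). Hoxd13, the most posterior gene of the HoxD cluster, was at 8.38, 9.44, 13 and 19.5 CPM under the Eed null label against 0.179, 0.586, 0.851 and 0.764 CPM in J1 (log2 fold change 3.70, SE 0.30, adjusted p = 0.0089). Barx1, a homeobox factor of stomach and jaw mesenchyme, was at 16.3, 2.84, 11.5 and 13.8 CPM in cells labelled Eed null and 1.07, 0.127, 0.536 and 0 CPM in J1 (log2 fold change 3.75, SE 0.45, adjusted p = 0.0151). Each was near 0 in J1 at all days, so the folds depend on the prior count of 2 used on the log scale. Npnt, the extracellular matrix protein nephronectin, was above 1 CPM in every library, though low in J1 at days 2 and 4, at 101, 26.2, 37.5 and 131 CPM (labelled Eed null) against 11.8, 2.35, 4.75 and 17.8 CPM (J1) (log2 fold change 3.01, SE 0.16, adjusted p = 0.0033). Its daily log2 ratios of 3.05, 3.28, 2.88 and 2.85 hardly differed between days, although its level moved with the day in both lines.

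Of the 34 Hox cluster genes tested, 17 passed the test as higher by limma and 8 by edgeR, 13 were higher at every day, and the median log2 fold change was 2.18 beside 0.01 for all genes. The number above the limit was 32, 30, 27 and 16 of 34 at days 0, 2, 4 and 7, beside 14.4%, 8.47%, 13.3% and 14% of all genes tested. Among all genes 4.87% were called higher by limma and 1.57% were higher at every day. Hoxa9 was at 6.62, 4.76, 7.73 and 8.38 CPM under the Eed null label against 0, 0, 0 and 3.8 CPM in J1, and Hoxb9 at 5.95, 3.51, 4.95 and 11.6 CPM in cells labelled Eed null and 1.79, 0, 0.222 and 0.858 CPM in J1. In Hoxa9, as in Hoxa10 (4.63, 12.9, 5.06 and 11.4 CPM (labelled Eed null) against 0, 0.127, 0.0928 and 6.34 CPM (J1)) and Hoxa11 (1.98, 9.27, 2.5 and 8.28 CPM under the Eed null label against 0, 0, 0.0928 and 3.65 CPM in J1), J1 was at or near 0 until day 4 and reached several CPM at day 7. EdgeR did not call Hoxa9, Hoxa10 and Hoxa11 (adjusted p = 0.0946, 0.0894 and 0.101). The summed level of all 39 Hox cluster genes measured, tested or not, was 122, 112, 127 and 222 CPM under the Eed null label and 7.88, 3.89, 30.3 and 125 CPM in J1. The ratio of the lines was thus smallest at day 7, when the sum in J1 was at its highest.

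Of the 20 neural ectoderm genes tested, 6 were higher over the days by limma and 4 by edgeR, and 6 were higher at every day. Beside this, 4.87% of all genes tested were called higher and 1.57% were higher at every day. Zic1, a zinc-finger factor of the dorsal neural tube, was at 2.43, 2.98, 13.3 and 23 CPM in cells labelled Eed null and 0.179, 0.463, 0.186 and 0.414 CPM in J1 (log2 fold change 3.42, SE 0.58, adjusted p = 0.0241). Lhx2, of the eye field and cortex, was at 5.73, 2.18, 12.1 and 12 CPM (labelled Eed null) against 0.896, 0.127, 0.407 and 4.23 CPM (J1). These levels stayed low in CPM. Of the 14 trophoblast and placenta genes, 5 were higher over the days and 3 at every day. At days 0, 2, 4 and 7, 12, 10, 4 and 5 of them were above the limit and 0, 1, 4 and 1 below it. The summed level of the 16 measured at day 4 was 2051 CPM under the Eed null label and 4623 CPM in J1, so the list was not higher as a whole at that day. Esx1, an X-linked homeobox gene of the placenta, was at 72.3, 18.9, 24 and 73.8 CPM under the Eed null label against 2.33, 2.09, 1.64 and 4.83 CPM in J1 (log2 fold change 3.77, SE 0.32, adjusted p = 0.0089). Tfap2a, an AP-2 factor, was at 10.4, 10.6, 22.7 and 25.9 CPM in cells labelled Eed null and 1.07, 1.43, 6.23 and 2.92 CPM in J1, and Rhox9 at 49.2, 12.7, 10.6 and 18.6 CPM (labelled Eed null) against 6.98, 3.55, 1.39 and 6.67 CPM (J1). Of the 20 cardiac genes 1, Nkx2-5, was higher at every day, at 2.43, 1.57, 3.93 and 5.58 CPM under the Eed null label against 0.179, 0.127, 0.5 and 0.848 CPM in J1 (log2 fold change 2.19, SE 0.30, adjusted p = 0.0167). Of the 23 imprinted genes tested, 2 were higher over the days, Igf2r and Sfmbt2. The cardiac and imprinted counts are too small to set these lists apart from all genes tested. Sfmbt2, a Polycomb-group gene of the extraembryonic lineages, was at 461, 407, 382 and 345 CPM in cells labelled Eed null and 99.9, 83.2, 54.6 and 66.2 CPM in J1 (log2 fold change 2.41, SE 0.12, adjusted p = 0.0033), and no library labelled Eed null overlapped a J1 library.

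**Figure D2:**
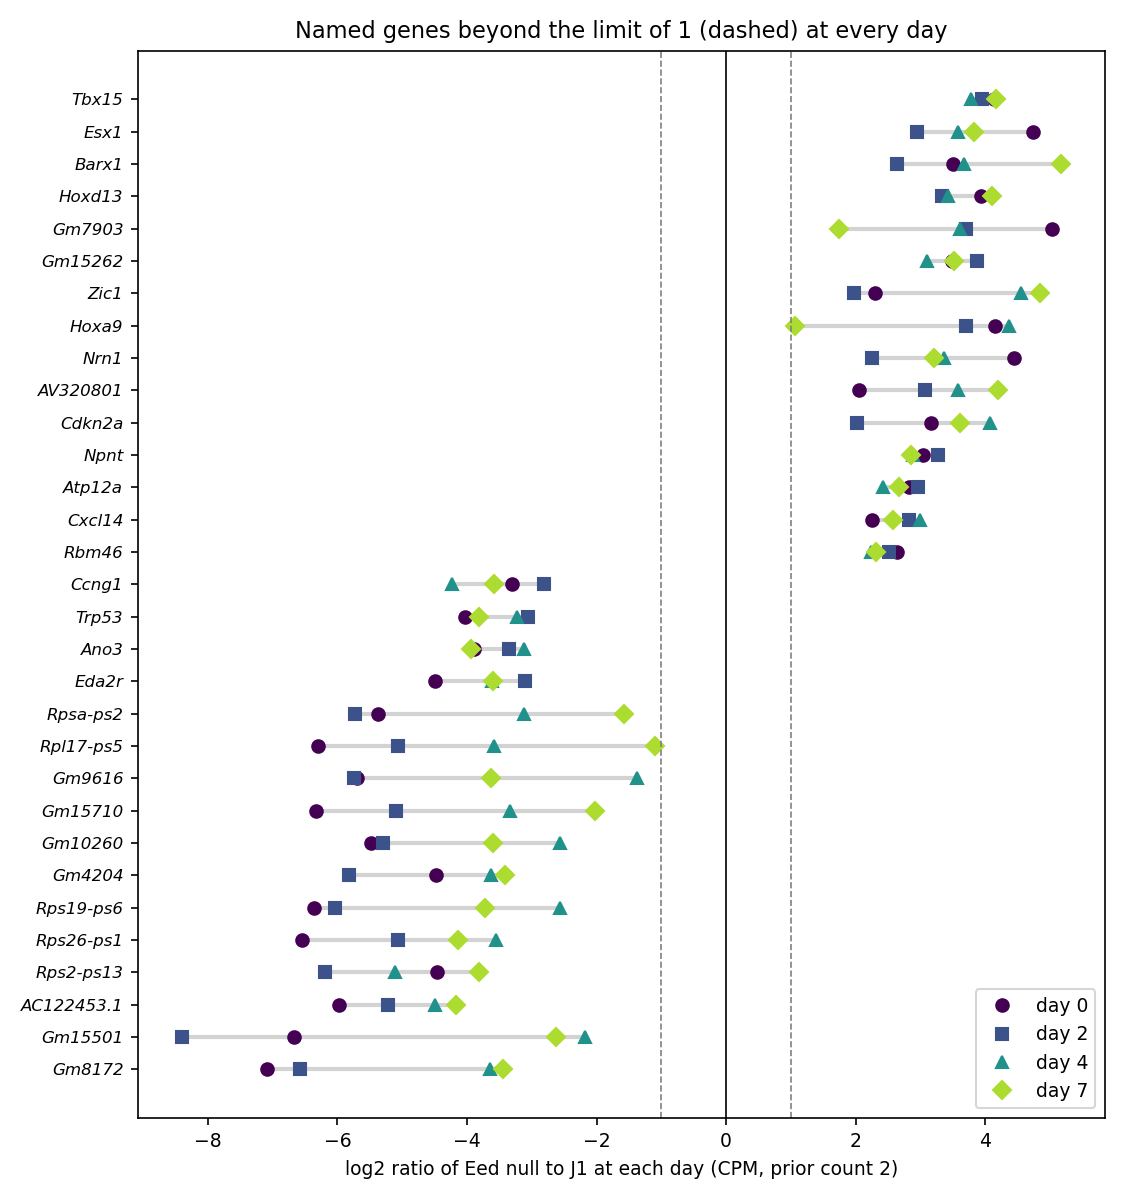
Log2 ratio of the line labelled Eed null to J1 at days 0, 2, 4 and 7 for the named genes that passed the limit of 1 (dashed lines) at every day, 1 row per gene and 1 marker per day, with a grey bar from the lowest to the highest day. The ratios of Tbx15, Npnt, Trp53 and Ano3 lie close together over the days, while those of processed pseudogenes such as Gm15501 and Rpl17-ps5 spread over several log2 units.

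On the X chromosome, which the rule did not use, lay 26 of the 251 (10.4%), beside 3.81% of all genes tested. Named after their values were seen, they included Tex11, Tex13b, Tex16, Mageb4, Xlr5a, Xlr5b, Rhox9, Rhox10 and Rhox13, which belong to gene families known for their expression in germ cells and placenta. Members of such families share sequence, and reads may have been divided among copies, so single values are uncertain. Of the genes higher only late 9 of 198 lay on the X chromosome (4.55%). Of the 9 Y-linked genes tested, 4 passed the test as lower over the days, by log2 fold changes of -0.98 (Kdm5d), -1.02 (Uty), -0.85 (Ddx3y) and -0.99 (Eif2s3y), although Eif2s3y turned to 0.91 with all 3 wild-type lines as controls. By edgeR Kdm5d was not called (adjusted p = 0.0561). Among all genes tested 4.36% were called lower by limma.

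Processed pseudogenes, copies of mRNAs pasted back into the genome, made up 40 of the 96 genes lower at every day (41.7%) beside 5.46% of all genes tested. Rps2-ps13, a copy of a ribosomal protein gene, was at 2.87, 0.879, 0 and 0.345 CPM (labelled Eed null) against 71.5, 92.3, 13.2 and 10.0 CPM (J1) (log2 fold change -4.89, SE 0.42, adjusted p = 0.0089). Gm8172 was at 0, 0.5, 0.665 and 0.562 CPM under the Eed null label against 53.6, 84.9, 12.8 and 10.0 CPM in J1 (log2 fold change -5.19, SE 0.70, adjusted p = 0.0162), and Gm15501 at 0.662, 0, 5.23 and 3.9 CPM in cells labelled Eed null and 108, 133, 25.1 and 26.2 CPM in J1 (log2 fold change -4.97, SE 1.05, adjusted p = 0.0394). By edgeR Gm15501 was not called (adjusted p = 0.0847). Gm4204 was at 0 in every library labelled Eed null and at 8.42, 21.9, 4.51 and 3.79 CPM in J1. Most of them were high in J1 only. The median level of the 40 was 6.78, 10.1, 1.96 and 1.49 CPM in J1 and at most 0.428 CPM in each library of JM8 and Pcl1-3 WT. In 30 of the 40 the lowest J1 level was above the highest level in JM8, Pcl1-3 WT and the lines labelled Mtf2 null and Jarid2 null. Single pseudogenes reached 382 CPM in the library labelled Mtf2 null at day 0, and 377, 290 and 246 CPM in those labelled Jarid2 null at days 2, 4 and 7. None of the 40 was among the 14 genes that were also lower against both other wild-type lines. Reads of a pseudogene and of its parent gene can be hard to tell apart in counting, and these values are uncertain as measures of transcription.

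Germline and meiosis genes included differences at every day and late ones. Of 37 tested, 12 were higher over the days by limma and 6 by edgeR, 5 were higher at every day, and the number above the limit was 15, 7, 30 and 34 at days 0, 2, 4 and 7. Among all genes tested 4.87% were called higher by limma and 1.57% were higher at every day. The share above the limit was 14.4%, 8.47%, 13.3% and 14% at these days. Tex15, which silences retrotransposons in male germ cells, was at 113, 175, 108 and 82.7 CPM (labelled Eed null) against 22.2, 41.6, 16.5 and 13.9 CPM (J1) (log2 fold change 2.40, SE 0.14, adjusted p = 0.00434). Brdt, a testis bromodomain protein, was at 9.48, 3.38, 4.67 and 5.26 CPM under the Eed null label against 2.33, 1.14, 1.48 and 0.877 CPM in J1, and Slc25a31, a mitochondrial ADP and ATP carrier of germ cells, at 38.1, 8.01, 8.95 and 14.8 CPM in cells labelled Eed null and 3.4, 2.81, 0.443 and 0.32 CPM in J1. Asz1, of the piRNA pathway, was at 17.2, 11.1, 4.05 and 1.78 CPM (labelled Eed null) against 2.33, 2.3, 0.186 and 0.113 CPM (J1), and Stra8, the retinoic acid response gene of meiotic entry, at 20.5, 4.78, 3.52 and 4.99 CPM under the Eed null label against 7.34, 1.13, 0.0928 and 0.527 CPM in J1. Over the days the ranges of the lines stayed apart in Tex15, Brdt and Slc25a31 and overlapped in Asz1 and Stra8. Asz1 fell from day to day in both lines, and Stra8 was lower at day 7 than at day 0 in both, with its lowest level at day 4. Dnmt3l, the cofactor of de novo DNA methylation that the list also holds, was at 675, 367, 327 and 130.4 CPM in cells labelled Eed null and 136, 225, 14.3 and 7.96 CPM in J1, with its smallest gap at day 2.

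Promoters of germline genes are known to carry the E-box CACGTG, the site of the repressor complex that holds E2f6, Max and Mga. The letters CACGTG, which read the same on both strands, stood in a promoter window of 14 of the 30 germline genes matched (46.7%). The share was 11.3% of the genes tested that had a window, and 8.09% of all 27025 genes with a RefSeq window for GRCm38. Where a gene had several windows, a match in any of them counted. In the genes higher at every day (10.7%) and higher only late (10.9%) the share was near that of all genes tested. A window held 250 bases before and 50 after the gene start, and 81.1% of the germline genes but 72.2% of the genes tested had one, so the comparison with all genes tested covers those only. The windows of Brdt (chr5:107330944-107331243, plus strand) and Slc25a31 (chr3:40708621-40708920, plus strand) show the motif in capitals, and that of Asz1 (chr6:18109012-18109311, minus strand) is shown as a window without these letters. Each is written 5′ to 3′ on the strand of its gene.
Brdt: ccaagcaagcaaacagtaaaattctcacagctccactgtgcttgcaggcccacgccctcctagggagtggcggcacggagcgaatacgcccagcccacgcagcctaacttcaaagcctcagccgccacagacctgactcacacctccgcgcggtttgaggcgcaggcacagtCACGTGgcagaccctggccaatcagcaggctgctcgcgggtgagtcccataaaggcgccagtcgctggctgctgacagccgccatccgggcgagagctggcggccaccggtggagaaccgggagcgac
Slc25a31: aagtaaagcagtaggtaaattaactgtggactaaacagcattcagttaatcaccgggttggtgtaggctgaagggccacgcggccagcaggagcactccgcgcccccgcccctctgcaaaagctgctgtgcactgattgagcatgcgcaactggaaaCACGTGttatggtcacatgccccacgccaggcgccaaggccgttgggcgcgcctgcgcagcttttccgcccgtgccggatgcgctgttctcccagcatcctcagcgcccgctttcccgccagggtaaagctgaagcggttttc
Asz1: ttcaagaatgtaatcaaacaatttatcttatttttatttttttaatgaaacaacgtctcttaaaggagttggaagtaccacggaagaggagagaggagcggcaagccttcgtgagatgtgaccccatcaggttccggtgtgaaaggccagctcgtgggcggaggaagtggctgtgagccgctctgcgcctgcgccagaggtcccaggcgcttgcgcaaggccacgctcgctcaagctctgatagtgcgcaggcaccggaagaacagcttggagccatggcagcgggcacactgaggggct
The window of Stra8, which is not printed, also lacked CACGTG. A match describes the letters and does not show binding.

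Differences that arose only late formed a separate group. The change of the log2 ratio from days 0 and 2 to days 4 and 7 was tested in the same way, and 263 genes passed (1.65%), 182 with a higher ratio late (1.14%) and 81 with a lower one (0.508%). Without day 0, 2 or 4 the limma count was 0, with 1707, 2828 and 2566 genes under an unadjusted p of 0.05, and without day 7 it was 123. Of the 55 called genes recomputed, 55, 55, 55 and 17 lost the call without day 0, 2, 4 and 7, none with a change of direction. Of the 198 genes higher only late 40 passed this test, and of the 61 lower only late 3. The late-only sets, and the crossing genes given below, were cut from the same daily ratios. These counts and the adjusted p of their members are thus not independent of the rule. The daily ratios of all genes correlated at 0.63 between days 0 and 2 and at 0.54 between days 4 and 7, and at 0.24 to 0.31 between an early and a late day. This is a correlation across genes, which are not independent, and each day's 2 libraries enter every ratio of that day.

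Genes known from the pluripotent state, such as Dppa5a, Esrrb, Fbxo15 and Gdf3, were among the 10 named genes higher only late. Dppa5a, an RNA-binding protein of early embryos and stem cells, was at 1876, 1469, 1224 and 354 CPM (labelled Eed null) against 1763, 1187, 114 and 47.8 CPM (J1) (late minus early 2.95, SE 0.22, adjusted p = 0.00768). The 2 lines were close at days 0 and 2, and the library labelled Eed null was above J1 by day 4. Esrrb, an orphan nuclear receptor of naive stem cells, was at 368, 558, 184 and 97 CPM under the Eed null label against 514, 507, 21.4 and 14.9 CPM in J1 (late minus early 3.05, SE 0.26, adjusted p = 0.00768). Trap1a, an X-linked tumour antigen gene, was at 128, 88.8, 82.5 and 52 CPM in cells labelled Eed null and 91.7, 126, 8.02 and 5.92 CPM in J1 (late minus early 3.19, SE 0.34, adjusted p = 0.0141), and Fbxo15, an F-box gene used as a stem cell marker, at 205, 301, 135 and 57.2 CPM (labelled Eed null) against 287, 284, 13.2 and 10.4 CPM (J1) (late minus early 3.07, SE 0.34, adjusted p = 0.0155). Gdf3, a TGF-beta family ligand, was at 37.5, 91.6, 53.1 and 17.4 CPM under the Eed null label against 39.6, 75.9, 4.6 and 3.51 CPM in J1. In all of these J1 lost most of its level between days 2 and 4, and the library labelled Eed null kept more of it.

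Of the 20 naive and core pluripotency genes tested, 1, Klf4, was higher over the days by limma (edgeR adjusted p = 0.0644), while 8 changed their ratio from early to late, all upward. The number above the limit was 0, 1, 14 and 15 at days 0, 2, 4 and 7, beside 14.4%, 8.47%, 13.3% and 14% of all genes tested. An upward change from early to late was called in 1.14% of all genes tested. Sox2, a core factor, was at 227, 398, 214 and 110.3 CPM in cells labelled Eed null and 349.8, 384, 32 and 18.4 CPM in J1 (late minus early 2.93, SE 0.25, adjusted p = 0.00768). Zfp42, also called Rex1, was at 233, 843, 220.5 and 93.5 CPM (labelled Eed null) against 398, 905, 20.2 and 20.4 CPM (J1) (late minus early 3.24, SE 0.42, adjusted p = 0.0226). Fgf4, Tcl1, Utf1 and Nr0b1 changed by 2.95, 3.44, 2.25 and 4.85 on the log2 scale. Pou5f1 (Oct4), at 664, 699, 453 and 189 CPM under the Eed null label against 804, 815, 209 and 29 CPM in J1, and Nanog, at 333, 618, 374 and 132 CPM in cells labelled Eed null and 477, 422, 135 and 24.1 CPM in J1, did not pass (adjusted p = 0.0731 and 0.0775). The summed level of the 20 genes was 6427, 8444, 4651 and 2113 CPM under the Eed null label and 7476, 7782, 2116 and 853 CPM in J1. Both sums were lower at days 4 and 7 than at days 0 and 2, that of J1 more so. In bulk samples fewer cells of a type and less RNA per cell cannot be told apart.

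The choice of control line mattered for this group. At days 4 and 7 Dppa5a was at 337 and 278 CPM in JM8 and at 662 and 1081 CPM in Pcl1-3 WT. Sox2 was at 139 and 129 CPM in JM8 and at 271 and 214 CPM in Pcl1-3 WT. For Sox2 at day 7 the library labelled Eed null was thus below both. Of the 198 genes higher only late, 15 also passed the limit at days 4 and 7 against both other wild-type lines. Of the 61 lower only late, 0 did. J1 was the wild-type line with the lowest Dppa5a, Esrrb and Sox2 levels at these days, and the part of this difference between wild-type lines in the late-only group was not tested.

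The germline list also held late changes. Its genes changed their ratio upward from early to late in 11 of 37 cases, beside 1.14% of all genes tested. Dazl, a germ cell RNA-binding protein, was at 43.9, 20.9, 13.7 and 26.6 CPM (labelled Eed null) against 38.1, 14.2, 1.22 and 2.39 CPM (J1) (late minus early 2.83, SE 0.35, adjusted p = 0.0206). Sohlh2, a factor of germ cell differentiation, was at 109, 89.7, 62.1 and 46.9 CPM under the Eed null label against 55.7, 27.5, 2.57 and 1.61 CPM in J1 (late minus early 3.15, SE 0.32, adjusted p = 0.0123). Dppa3 (Stella) was at 102, 88.7, 171 and 56.4 CPM in cells labelled Eed null and 80.6, 55.4, 7.91 and 6.66 CPM in J1 (late minus early 3.18, SE 0.43, adjusted p = 0.0256). Meioc and Smc1b, which act in meiosis, were within 0.5 of J1 at days 0 and 2 and changed by 2.68 and 2.62, and Piwil2 changed by 2.68. Dppa2 and Dppa4, chromatin proteins of stem cells and germ cells, changed by 3.15 and 2.96. The summed level of all 38 germline genes measured, tested or not, fell with time in both lines. It went from 2112 to 871 CPM under the Eed null label and from 1213 to 143 CPM in J1. Among the PRC1 genes Cbx7 (194, 189, 199 and 117 CPM (labelled Eed null) against 215, 164, 52.9 and 17.2 CPM (J1)) and Phc1 (231, 344, 362 and 159.7 CPM under the Eed null label against 371, 463, 133 and 94.1 CPM in J1) changed in the same direction, by 2.29 and 1.66.

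**Figure D3:**
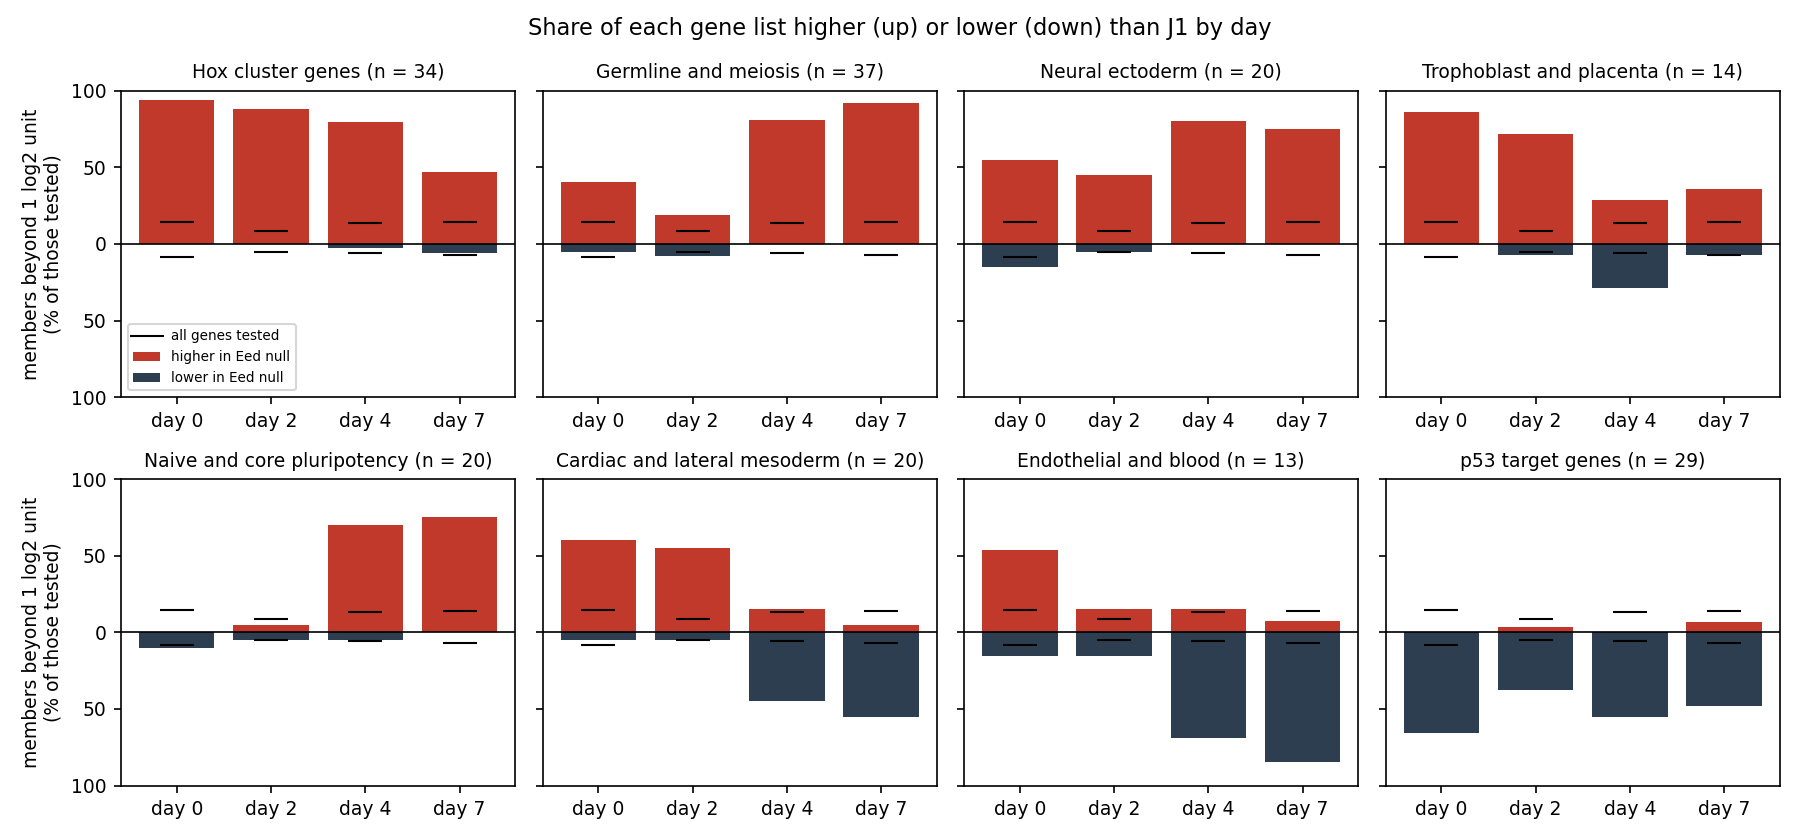
Share of each gene list, in percent of the members tested, with a log2 ratio above 1 (up, red) or below -1 (down, dark blue) at days 0, 2, 4 and 7; the short black lines give the same shares for all 15948 genes. The Hox share on the higher side is 32 of 34 at day 0 and 16 of 34 at day 7, the pluripotency share goes from 0 of 20 at day 0 to 15 of 20 at day 7, and the p53 target list was chosen after values had been seen.

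Most endothelial and blood genes of the list were lower late. Of the 13 tested, 9 and 11 were below the limit at days 4 and 7 and 2 and 1 above it, whereas at day 0 7 were above and 2 below, and at day 2 there were 2 on each side. Among all genes tested 5.92% and 7.04% were below the limit at days 4 and 7, and 14.4% were above it at day 0. Kdr, the VEGF receptor of the vascular and blood lineages, was at 4.63, 3.42, 5.64 and 25.3 CPM in cells labelled Eed null and 0.716, 2.01, 325 and 235 CPM in J1 (late minus early -5.89, SE 0.88, adjusted p = 0.0333). Tal1, a master factor of blood formation, was at 0.441, 0.959, 3.43 and 3.02 CPM (labelled Eed null) against 0.896, 0.669, 53.6 and 86.4 CPM (J1) (late minus early -4.10, SE 0.61, adjusted p = 0.0333). Hbb-bh1, an embryonic globin, was at 0, 0, 0.244 and 0.224 CPM under the Eed null label against 0, 0.38, 2.46 and 3385 CPM in J1 and did not pass (adjusted p = 0.259). Cdh5, the VE-cadherin of endothelium, was at 1.1, 0.5, 0.821 and 6.27 CPM in cells labelled Eed null and 0.179, 0.463, 8.95 and 154 CPM in J1 (adjusted p = 0.051). Tek, the angiopoietin receptor, was lower at every day, at 2.21, 5.21, 1.29 and 3.12 CPM (labelled Eed null) against 11.1, 16.6, 5.08 and 78.7 CPM (J1). In Kdr, Tal1 and Cdh5 both lines were below 5 CPM at days 0 and 2, with Kdr and Cdh5 higher under the Eed null label at day 0 by log2 ratios of 2.18 and 1.38, and J1 had the larger increase by day 7.

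The genes of the primitive streak and nascent mesoderm did not keep 1 direction at the late days. Of the 14 tested, 4, 5, 1 and 9 were above the limit and 2, 2, 8 and 1 below it at days 0, 2, 4 and 7, with a median log2 ratio of -1.84 at day 4 and 1.26 at day 7. Among all genes tested 14.4%, 8.47%, 13.3% and 14% were above the limit and 8.52%, 5.15%, 5.92% and 7.04% below it. Eomes, a T-box factor of the streak, was at 21.6, 16.3, 43.2 and 8.94 CPM under the Eed null label against 5.55, 6.24, 156 and 1.74 CPM in J1, and Mixl1, a homeobox factor of the same region, at 0.441, 1.3, 4.44 and 0.881 CPM in cells labelled Eed null and 0.179, 0.922, 111 and 0.103 CPM in J1. In J1 both were highest at day 4 and under 2 CPM at day 7. The 1 gene of this list whose early to late change passed was Lefty2.

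Among the 10 named genes lower only late, Klhl6 and Hapln1 passed the late minus early test. Klhl6, a gene of B cells and endothelium, was at 0, 0, 1.09 and 1.02 CPM (labelled Eed null) against 0, 0, 21 and 18.1 CPM (J1) (late minus early -3.78, SE 0.62, adjusted p = 0.0414). Hapln1, which links hyaluronan to proteoglycans, was at 0, 0.192, 0.932 and 6.65 CPM under the Eed null label against 0, 0.21, 23.7 and 63.1 CPM in J1 (late minus early -3.66, SE 0.64, adjusted p = 0.0491). The blood factors Gfi1b and Ikzf1, the signalling genes Wnt2 and Bmp5, and Tdo2, Ldb2, Dusp2 and Ednrb had late minus early changes of -4.35 to -2.48 with adjusted p from 0.063 to 0.27. Bmp5 was at 0, 0, 0.299 and 8.38 CPM in cells labelled Eed null and 0, 0, 14.4 and 55.9 CPM in J1, and Wnt2 at 0, 0.0758, 0.0887 and 2.47 CPM (labelled Eed null) against 0, 0, 3.34 and 29.1 CPM (J1). For several of these J1 was high at day 7 only.

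This group too depended on the control. At days 4 and 7 Kdr was at 2.76 and 136 CPM in JM8 and at 3.03 and 4.15 CPM in Pcl1-3 WT. Hbb-bh1 at day 7 was at 632 CPM in JM8 and 2.31 CPM in Pcl1-3 WT. The library labelled Eed null had more Kdr than Pcl1-3 WT at both days and less than JM8 at day 7. Of the 3 wild-type lines J1 had the highest Kdr, Tal1 and Hbb-bh1 levels at day 7. These are single samples, with no spread to compare.

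A smaller set of genes crossed over between early and late days. Higher than the limit at days 0 and 2 and lower at days 4 and 7 were 14 genes (0.0878%), and the reverse held for 16 (0.1%). Hand1, a factor of extraembryonic and cardiac mesoderm, was at 127, 12.7, 25.6 and 208 CPM under the Eed null label against 1.79, 0.795, 295 and 457 CPM in J1 (late minus early -6.98, SE 0.95, adjusted p = 0.0256). Tbx20, a cardiac T-box factor, was at 16.3, 11.1, 17.6 and 49.8 CPM in cells labelled Eed null and 1.97, 1.63, 99.1 and 211 CPM in J1 (late minus early -4.93, SE 0.32, adjusted p = 0.00657). Foxf1, of lateral mesoderm, was at 5.29, 1.08, 6.48 and 24.3 CPM (labelled Eed null) against 0.537, 0.127, 66.1 and 68.8 CPM (J1) (late minus early -4.43, SE 0.73, adjusted p = 0.0414), and Gata6, of endoderm and cardiac mesoderm, at 8.82, 4.76, 6.62 and 34.1 CPM under the Eed null label against 3.4, 1.63, 47.6 and 121 CPM in J1 (late minus early -3.61, SE 0.43, adjusted p = 0.0184). Nrp1, a co-receptor for VEGF and semaphorins, was at 4.19, 3.1, 6.31 and 94.4 CPM in cells labelled Eed null and 0.537, 0.799, 136 and 931 CPM in J1 (late minus early -5.75, SE 0.48, adjusted p = 0.00768). At day 0 the levels in J1 were 0.537 to 3.40 CPM, below those in the cells labelled Eed null, and in both lines the highest level was at day 7, when J1 was above. Wnt5a, Lama4 and Zfpm1, also among the 14, changed by -3.76, -5.08 and -3.14.

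The cardiac and lateral mesoderm list as a whole had 12, 11, 3 and 1 of 20 genes above the limit and 1, 1, 9 and 11 below it at days 0, 2, 4 and 7. Its 5 genes with a called late change, Hand1, Tbx20, Foxf1, Gata4 and Gata6, all went down. Among all genes tested 14.4%, 8.47%, 13.3% and 14% were above the limit and 8.52%, 5.15%, 5.92% and 7.04% below it at the 4 days. A called downward change from early to late was found in 0.508%. Gata4 was at 29.8, 13.3, 33.6 and 57.2 CPM (labelled Eed null) against 4.66, 2.89, 76.3 and 62.5 CPM (J1) (late minus early -2.97, SE 0.42, adjusted p = 0.028). The same direction was seen in Krt8, the simple epithelial keratin, at 418, 46.1, 265 and 749 CPM under the Eed null label against 67.5, 15.1, 702 and 844 CPM in J1 (late minus early -2.89, SE 0.47, adjusted p = 0.0404), and in Igf2, the imprinted growth factor, at 1208, 104, 646 and 3208 CPM in cells labelled Eed null and 15, 7.71, 694 and 5772 CPM in J1 (late minus early -5.46, SE 0.76, adjusted p = 0.027). Col1a1, a collagen of mesenchyme and of feeder fibroblasts, was at 12.1, 4.1, 11.5 and 304 CPM (labelled Eed null) against 5.91, 2.22, 115 and 1988 CPM (J1) (late minus early -3.88, SE 0.29, adjusted p = 0.00768). It was the only one of the 10 fibroblast and feeder cell markers to pass, and 6, 2, 1 and 2 of these markers were above and 0, 0, 3 and 6 below the limit at the 4 days. The part of feeder cells or fibroblasts in the mesodermal differences was not tested.

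In the opposite direction, Lefty1, an inhibitor of Nodal signalling, was at 1.98, 34.8, 51.4 and 6.93 CPM under the Eed null label against 33.1, 125, 3.02 and 0.858 CPM in J1 (late minus early 6.06, SE 0.74, adjusted p = 0.0196), and its relative Lefty2 changed by 3.88. Nr0b1 (Dax1) was at 5.07, 32, 10.8 and 6.17 CPM in cells labelled Eed null and 21.7, 66, 0.5 and 0.424 CPM in J1 (late minus early 4.85, SE 0.52, adjusted p = 0.0146). Hormad1, of the meiotic chromosome axis, was at 7.72, 9.11, 3.98 and 2.34 CPM (labelled Eed null) against 25.4, 25.7, 0.944 and 0.113 CPM (J1) (late minus early 3.63, SE 0.52, adjusted p = 0.0306). The zinc-finger genes Zfp980 (73.9, 539, 205 and 52.3 CPM under the Eed null label against 244, 1080.1, 35.6 and 12.2 CPM in J1) and Zfp981 (29.8, 118, 49 and 19.5 CPM in cells labelled Eed null and 116, 446, 14.3 and 5.63 CPM in J1) had the same order, with J1 higher at days 0 and 2 and lower at days 4 and 7. Col2a1, the collagen of cartilage and notochord, was at 3.09, 1.99, 24.8 and 97.1 CPM (labelled Eed null) against 8.24, 4.69, 5.36 and 19.9 CPM (J1) (late minus early 3.39, SE 0.38, adjusted p = 0.0163).

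**Figure D4:**
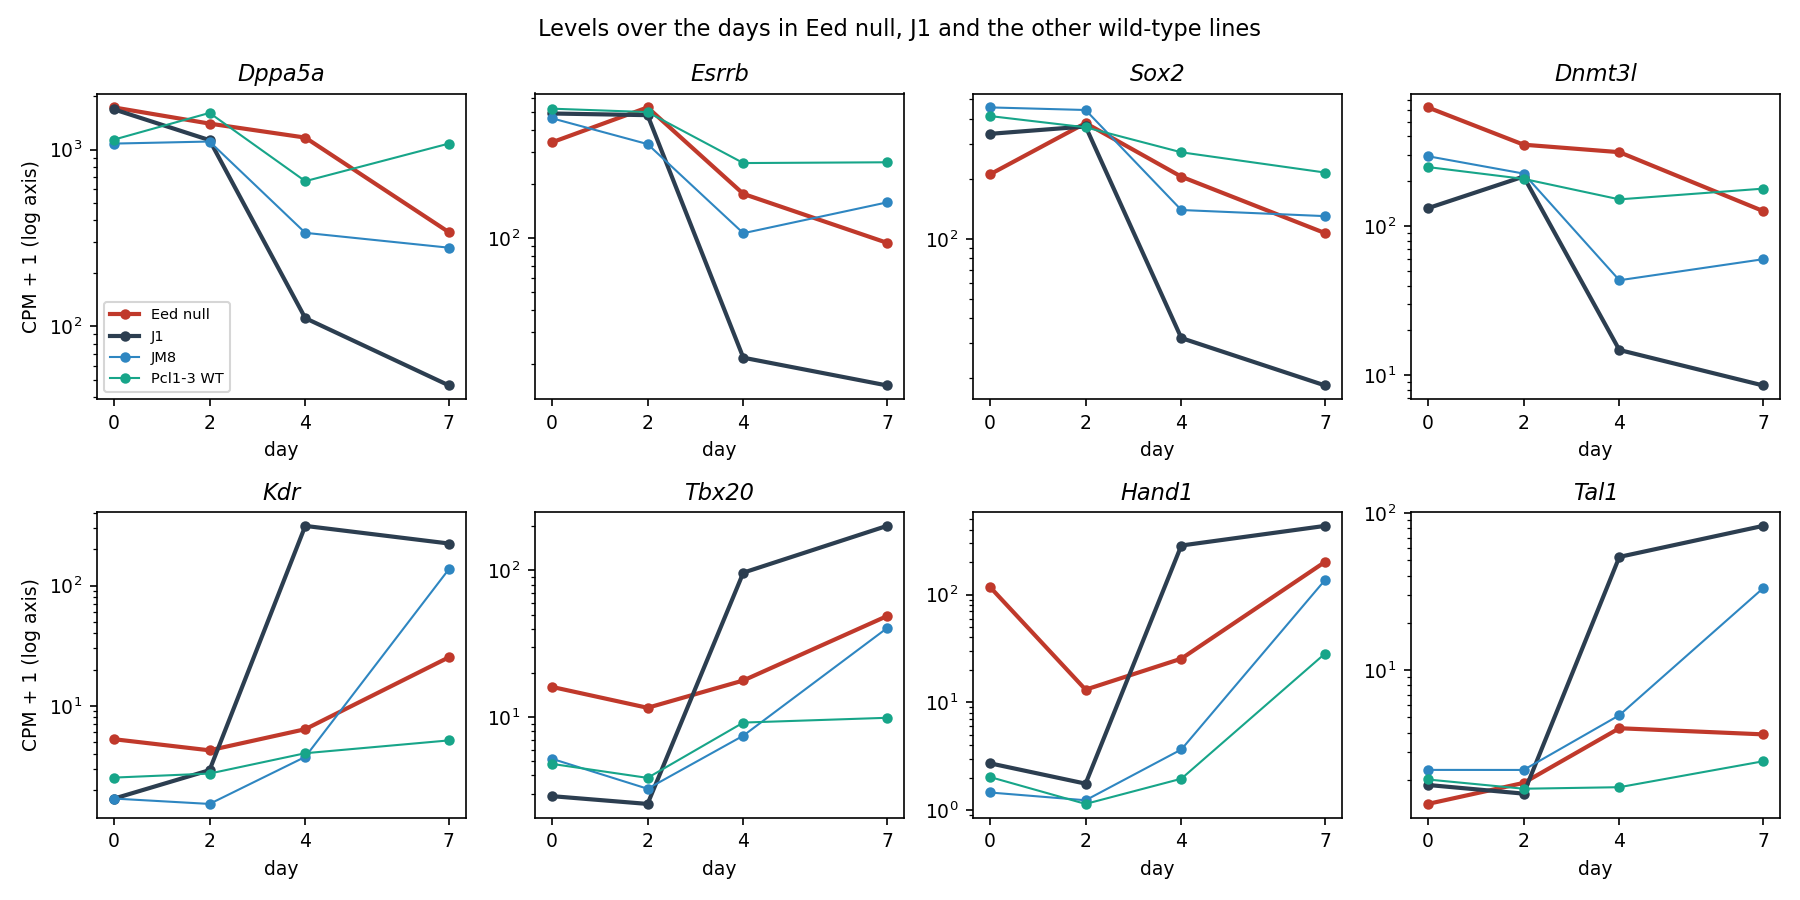
Levels of 8 genes over days 0, 2, 4 and 7, as CPM plus 1 on a log axis, 1 line per cell line and 1 point per sample (repeat columns averaged, no error bar). J1 (dark) has the lowest Dppa5a, Esrrb, Sox2 and Dnmt3l and the highest Kdr, Tbx20, Hand1 and Tal1 levels of the 4 lines at days 4 and 7, and the line labelled Eed null (red) starts above the others in Tbx20 and Hand1 at day 0.

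The remaining lists can be given briefly, beside 4.87% of all genes tested called higher and 4.36% called lower over the days. Of the 68 replication-dependent histone genes tested, 26 were lower by limma and 14 by edgeR, and 1, Hist2h2aa2, was higher over the days, with a median log2 fold change of -0.45. Hist1h2ab was at 81.6, 109.7, 131 and 93.4 CPM under the Eed null label against 266, 249, 292 and 202 CPM in J1, and Hist1h3b at 118, 165, 186 and 111 CPM in cells labelled Eed null and 298, 254, 302 and 224 CPM in J1. Histone mRNAs of this kind mostly lack poly(A) tails. The labels give polyA RNA for these samples while the study's methods describe removal of ribosomal RNA for bulk RNA at the time points of its endoderm and mesoderm series, so how these mRNAs were recovered is not settled. Otx2, of the 12 formative epiblast genes, changed by 2.21 from early to late, with levels of 15.4, 41.1, 91.3 and 20.2 CPM (labelled Eed null) against 42.1, 77.4, 44.3 and 9.6 CPM (J1). Of 15 endoderm genes 1, Trf, the iron carrier transferrin, was higher over the days, at 31.1, 9.36, 6.05 and 24.7 CPM under the Eed null label against 7.34, 4.73, 1.68 and 2.54 CPM in J1. The endoderm list changed side late. Its members above the limit numbered 9, 7, 9 and 2 and those below it 3, 0, 3 and 6 at the 4 days, with a median log2 ratio of 1.30 at day 4 and -0.94 at day 7. Of the 11 genes of the 2-cell stage tested, 2, 1, 3 and 9 were above the limit and 2, 2, 0 and 0 below it at the 4 days. Among all genes tested 14.4%, 8.47%, 13.3% and 14% were above the limit and 8.52%, 5.15%, 5.92% and 7.04% below it. The 12 measured, tested or not, summed to 56.6 CPM under the Eed null label and 9.78 CPM in J1 at day 7.

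The single-cell libraries of the series offer the same genotype label in other samples, with wild-type E14 cells in place of J1. Each was 1 plate of 384 wells, of which 340 to 366 held at least 500 detected genes and were kept, so there is no replicate and no test. Trp53 summed over the cells was 38.7 CPM (32.9 to 45.4) against 324 (305 to 343) CPM in wild type at day 0, 24.4 CPM (19 to 30.9) against 79.5 (69.6 to 90.3) at day 4 and 29.2 CPM (23.3 to 36) against 102 (90.5 to 115) at day 7, where the ranges are 95% exact Poisson intervals that cover counting error only. Eda2r at day 4 was 7.07 CPM (4.32 to 10.9) against 75.1 (65.5 to 85.6), and Cdkn1a at day 7 was 66.9 CPM (57.9 to 76.9) against 228 (210.1 to 246). Tex15 at day 0 was 81 CPM (72.4 to 90.4) against 4.9 (2.85 to 7.84). The summed levels of Trp53, Ccng1, Eda2r and Cdkn1a were lower, and that of Tex15 higher, than in E14 at each of the 3 days.

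Over the sets, counted among genes with at least 20 UMIs, 115 of 117, 109 of 113 and 124 of 128 genes that were higher at every bulk day were also higher in the single cells labelled Eed null at days 0, 4 and 7. The share among all genes was 51.2%, 55.3% and 49.6%. Of the genes lower at every bulk day 40 of 63, 59 of 63 and 56 of 65 were lower. Of those higher only late 78 of 119 (65.5%) were higher at day 0, 96 of 113 at day 4 and 92 of 107 at day 7. Of those lower only late 15 of 21, 9 of 19 and 27 of 35 were lower. Among all genes 6246 of 12801, 5645 of 12640 and 6709 of 13309 were lower. At day 4 the genes lower only late thus lay near the share over all genes. Hand1, higher early and lower late in bulk, was 25.4 CPM (20.7 to 30.9) against 0.288 (0.00729 to 1.61) at day 0 and 44.1 CPM (36.9 to 52.4) against 106 (93.6 to 119) at day 7. At day 4 the single cells went the other way from bulk. Hand1 was 32.2 CPM (25.9 to 39.5) against 0 (0 to 1.24) there, but 25.6 against 295 CPM in bulk.

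**Figure D5:**
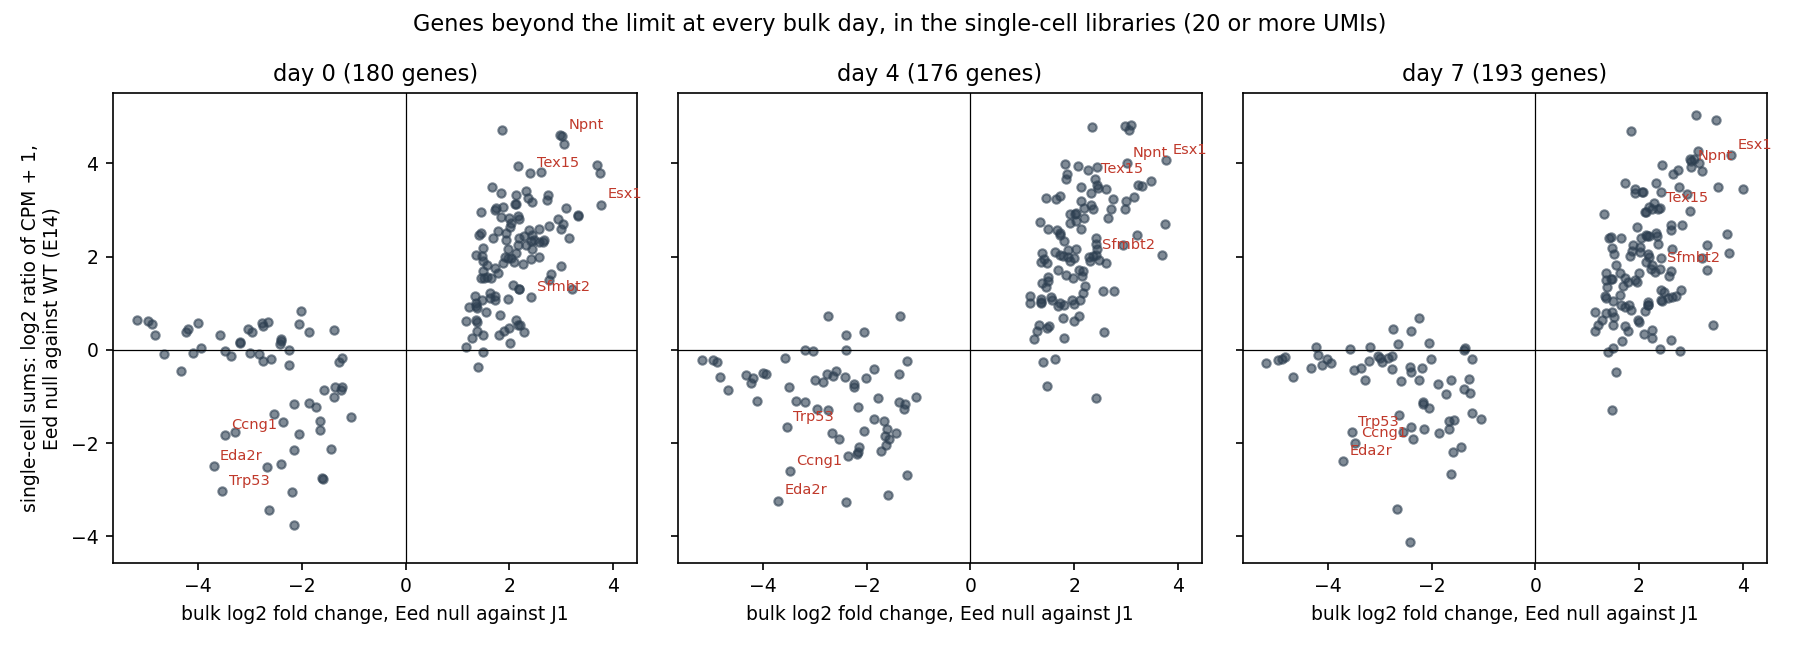
Log2 ratio of summed single-cell CPM plus 1, cells labelled Eed null against E14 wild type (y axis), beside the bulk log2 fold change of the line labelled Eed null against J1 (x axis), 1 point per gene that passed the limit at every bulk day and has 20 or more UMIs at that day. At day 4, 109 of 113 genes on the right lie above 0 and 59 of 63 genes on the left lie below it, with Trp53, Ccng1 and Eda2r among the latter.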

How the data were processed

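The authors sorted viable cells of the embryoid bodies, made RNA libraries (polyA RNA per the labels, while the study's bulk RNA methods, given for the endoderm and mesoderm time points, deplete ribosomal RNA) and quantified reads on GRCm38/mm10. The submitters' notes name CASAVA, Salmon and DESeq2 for the bulk samples, without versions. The bulk table deposited by the authors holds a signal, read counts divided by a size factor per column. Each column was a whole multiple of 1 step, within a tolerance of 0.02, so reads were recovered (100% of values whole). Repeat columns for the same line and day were reduced to the mean of their deposited values and count as 1 sample. Values were scaled with TMM, put on a log2 scale with a prior count of 2, and tested with limma 3.58.1 in R 4.3.3, with the line and the day as terms. A second fit tested days 4 and 7 against days 0 and 2. The scripts were tested on simulated data. Count tests on the recovered reads used edgeR 4.0.16 and DESeq2 1.42.0.

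The single-cell counts deposited by the authors came from Bowtie2 and HTSeq per the labels and were summed over cells. Gene positions and types came from GENCODE M21. Named genes were the 12 with the largest called change in each direction, the 10 with the largest smallest daily ratio among genes that differ at every day, the 10 with the largest late ratio among those that differ only late (each with a mean of 5 CPM in the higher line), Eed, and members of lists. Genes outside the lists named as X-linked or crossing were picked once their values had been seen. The members and lists were chosen with earlier results of these data known. Alternatives covered scaling, filters, the block, the control lines, the size limits and each day left out. Values of some genes that the rule or the lists hold are not reported here.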

Additional observations from a re-analysis of the deposited data

Results flagged for a closer look

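A difference of the line labelled Eed null from J1 that changed between early days (0 and 2) and late days (4 and 7), by limma's test of that change with Benjamini-Hochberg adjustment, was found for 57 of the genes named here. Values are the late minus early change of the log2 ratio. Upward changes were found in the pluripotency genes Nr0b1 (4.85), Tcl1 (3.44), Zfp42 (3.24), Esrrb (3.05), Fgf4 (2.95), Dppa5a (2.95), Sox2 (2.93) and Utf1 (2.25), and in Trap1a (3.19), Fbxo15 (3.07), Kndc1 (2.92), Gdf3 (2.71) and Triml2 (2.62). Among germline genes they were found in Hormad1 (3.63), Dppa3 (3.18), Dppa2 (3.15), Sohlh2 (3.15), Dppa4 (2.96), Dazl (2.83), Meioc (2.68), Piwil2 (2.68), Smc1b (2.62) and Tex19.1 (2.33).
Other upward changes were in Lefty1 (6.06), Lefty2 (3.88), Enpp3 (3.98), Ina (3.71), Zfp981 (3.66), Zfp980 (3.65), Col2a1 (3.39), Elavl3 (2.80), Cbx7 (2.29), Otx2 (2.21), Phc1 (1.66), the imprinted gene Jade1 (1.64) and the pseudogenes Gm15501 (5.13) and Gm8172 (3.30), whose ratios stayed negative at every day. The X-linked genes Tex11, Xlr5a and Xlr5b changed by 2.26, 3.23 and 2.23.

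Downward changes were found in Hand1 (-6.98), Tbx20 (-4.93), Foxf1 (-4.43), Gata6 (-3.61) and Gata4 (-2.97), in Nrp1 (-5.75), Lama4 (-5.08), Wnt5a (-3.76) and Zfpm1 (-3.14), in Kdr (-5.89), Tal1 (-4.10), Klhl6 (-3.78) and Hapln1 (-3.66), and in Igf2 (-5.46), Grb10 (-2.24), Col1a1 (-3.88) and Krt8 (-2.89).

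In samples outside the comparison, the libraries labelled Mtf2 null at days 4 and 7 held signal of genes that were higher at every day in the line labelled Eed null. Sfmbt2 was at 372 and 396 CPM there against 33.8 and 164 CPM in Pcl1-3 WT, the line that the study pairs with Mtf2 null. Tbx15 was at 10.5 and 18.0 CPM against 0.32 and 0.4 CPM.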

How the results depend on the processing

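The count of genes called over the days (1471) was 783 with no filter on low values, 2581 with DESeq2 on the recovered reads, 14 with no block for the day, 3944 with all 3 wild-type lines as controls and 6091 with each column as a sample, an alternative added after seeing the data that treats repeat columns as replicates. It was 1008 with edgeR, of which 991 were shared with the limma calls. With each day left out it ran from 3 to 79. The late minus early count (263) was 84 with no filter, 749 with DESeq2 and 3707 with each column as a sample, and ran from 0 to 123 with each day left out, also added later. The number of genes that differ at every day (347) was 225 on the log2(CPM + 1) scale, 1252 at a size limit of 0.5, 40 at a limit of 2 and 119 beyond all 3 wild-type lines, and ran from 448 to 579 with each day left out. For the counts beyond all 3 wild-type lines the whole rule was applied again on a scale that includes those lines, so they differ slightly from the members counted in the report. The number that differ only late (259) was 38 at a limit of 2, 702 when early ratios up to 1 were allowed, 14 beyond all 3 wild-type lines and 166 for day 7 alone.

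Direction was reversed with the 3 wild-type lines as controls for Eed (-0.14), Pmaip1 (-0.45) and Eif2s3y (0.91), and for 13 of the 1471 called genes. None of the other named genes that were recomputed changed direction under the alternatives run. Trp53 kept its call under all 15 of them, whereas Trp53inp1 lost it without day 0, 2 or 7. The test itself pairs the lines by day, and beyond that no paired analysis was possible because the labels give 1 sample per line and day. The 1 sample per line and day limits the precision, and a difference between the lines other than Eed cannot be told apart from it. No interval for a daily ratio can be given, and genes near 1 CPM rest on a few reads.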

Other observations

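The libraries labelled Mtf2 null at days 4 and 7 resembled those labelled Eed null in Trp53 as well, with 38.7 and 11.2 CPM, against 228 and 227 CPM in the libraries labelled Mtf2 null at days 0 and 2. Ccng1 was at 80.2 and 61.9 CPM late and 252 and 279.9 CPM early in the same line. Across 15948 genes the log2 CPM of the library labelled Eed null correlated at 0.985 with that labelled Mtf2 null at day 4 and at 0.983 at day 7, and at most at 0.946 and 0.939 with any other line on the same day. At day 0 the library labelled Eed null correlated at 0.956 with that labelled Jarid2 null and at 0.932 with J1, and at day 2 at 0.963 with both J1 and that labelled Mtf2 null. This is a description across genes, which are not independent. These samples enter the comparison with J1 only in the alternative fit of all 24 samples, and the origin of the likeness was not tested.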
